A study of Mus musculus with 30 samples.

Results

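A set of 34 genes of the interferon response and of antigen presentation by major histocompatibility complex (MHC) class I were followed in the mouse nucleus accumbens. They were listed by name as known interferon-stimulated genes, with no threshold on a measured value, at a time when earlier results of these data were known. Of the 34 genes, 33 had a probe with a gene name, and 26 were detected on enough arrays to be tested, among 13228 genes tested in all. C57BL/6J mice received 4 mg/kg of dexamethasone, a synthetic glucocorticoid, or saline, and RNA was measured on Illumina bead arrays 4 h later. The RNA came from astrocytes, from neurons or from whole accumbens tissue, and the cells of the first and second kind were sorted with magnets. This made 6 groups of 5 arrays: astrocytes, neurons and tissue after dexamethasone, and the same preparations after saline. Each array held RNA from an individual mouse, and the labels do not say whether the astrocyte and neuron arrays came from the same animals.

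Interferons bind receptors that signal through Janus kinases to STAT proteins and interferon regulatory factors, which switch on many genes at the interferon-stimulated response element, or ISRE, and at the gamma-activated site, or GAS. The products sense viral RNA, block steps of viral replication and raise the loading of peptides on MHC class I. In the healthy brain many of these genes have a low tonic level, MHC class I is found mainly on endothelial cells and glia, and glucocorticoids are known as inhibitors of interferon signalling in immune cells.

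Stretches of promoters that hold the ISRE core are shown because interferon switches on many genes at this element, though the genes were listed by name. The core searched was GAAANNGAAA on both strands in the 250 bases before each start in RefSeq (GRCm38.p6), and capitals mark its matches. The printed genes are the 6 with a match and the largest called differences between preparations, read 5′ to 3′ on the strand of the gene. The stretches lie at chr12:26456538-26456597 on the minus strand for Rsad2, chr19:34583348-34583441 on the plus strand for Ifit3, chr2:122147523-122147582 on the plus strand for B2m, chr3:142559974-142560039 on the plus strand for Gbp3, chr3:142620579-142620638 on the plus strand for Gbp2 and chr8:71537562-71537627 on the minus strand for Bst2.
Rsad2: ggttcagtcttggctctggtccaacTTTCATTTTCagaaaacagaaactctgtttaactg
Ifit3: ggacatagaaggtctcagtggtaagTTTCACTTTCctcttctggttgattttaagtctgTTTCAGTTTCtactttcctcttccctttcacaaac
B2m: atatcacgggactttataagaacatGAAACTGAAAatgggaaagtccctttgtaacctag
Gbp3: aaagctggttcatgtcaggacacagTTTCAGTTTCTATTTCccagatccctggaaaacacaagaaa
Gbp2: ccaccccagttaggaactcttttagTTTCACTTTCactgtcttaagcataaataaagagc
Bst2: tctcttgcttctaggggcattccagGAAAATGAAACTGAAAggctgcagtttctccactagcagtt
The core matched once in Rsad2, B2m and Gbp2, and 2 times in Ifit3, Gbp3 and Bst2, where the matches of Gbp3 and of Bst2 overlap each other. RefSeq promoters were matched for 28 of the 34 genes, and 10 of their 33 promoters held the core (30.3%), against 978 of all 32851 promoters (2.98%). The GAS core, TTCNNNGAA, was in 5 of the 33 (15.2%) and in 7.02% of all promoters, and it shared bases with the ISRE core in Bst2. A match is a stretch of letters and not a bound site.

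Between 36.3% and 50.2% of the probes were detected on an array (the probes of odorant, vomeronasal, trace amine and taste receptors, used as negative controls, left out). The highest share belonged to replicate 5 of the tissue dexamethasone group, which correlated with another array of its group at only 0.90. The counts of called members for the drug in tissue, and for the preparations on the dexamethasone arrays, are therefore given with and without it. Marker genes bore out the labels in part: the astrocyte list averaged 13.52 in astrocytes, 8.81 in neurons and 11.12 in tissue under saline (log2 level, 14 genes), and the medium spiny neuron list 8.90, 12.96 and 12.02 (10 genes). The general neuron list averaged 10.35 in astrocytes, 12.56 in neurons and 12.86 in tissue under saline (9 genes), so it was not highest in sorted neurons. Oligodendrocyte markers were high in every preparation, at 13.66, 12.50 and 14.12 (8 genes). Among known targets of the drug, Fkbp5, a co-chaperone of the glucocorticoid receptor, rose by 3.84 ± 0.23 (log2, SE) in astrocytes and by 1.11 ± 0.14 in tissue (limma, adjusted p = 2.65e-05 and 0.0207), while it was higher by 0.63 ± 0.19 in neurons with adjusted p = 0.486. The targets Tsc22d3 and Sgk1 rose by 1.05 ± 0.17 and 2.01 ± 0.17 in astrocytes (limma, adjusted p = 0.00845 and 0.000141). In neurons they differed by -0.08 ± 0.19 and 0.14 ± 0.12 (limma, adjusted p = 0.98 and 0.907). In tissue the differences were 0.61 ± 0.16 and 0.83 ± 0.23 (limma, adjusted p = 0.461 and 0.515).

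Under saline the interferon and antigen presentation genes were higher in astrocytes than in either of the other preparations. In astrocytes against neurons 20 of the 26 tested genes were higher and 2 were lower, while 27% and 31.2% of all tested genes were higher and lower (limma on the 15 saline arrays, adjusted p under 0.05). In astrocytes against tissue 21 were higher and 0 were lower, with 24.2% and 27.6% of all genes. At an unadjusted p under 0.05 the count of lower members against tissue was also 0. The median difference of the 26 was 1.12 against neurons and 1.02 against tissue on the log2 scale, where the medians of all genes were -0.08 and -0.04. Neurons against tissue gave 4 higher and 5 lower, with 11% and 15.9% of all genes. Under median scaling in place of quantile normalization, 35.5% of all calls in astrocytes against tissue were higher, against 46.7% as given, and 22.9% in neurons against tissue, against 41.1%. The saline groups did not overlap for 18 members in astrocytes against neurons (43.2% of all genes), for 14 in astrocytes against tissue (38%) and for 8 in neurons against tissue (23.1%). The 3 comparisons share their saline arrays. In such RNA from many cells, fewer cells of a type and less RNA per cell cannot be told apart, and neither can sorting and cell type.

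**Figure D1:**
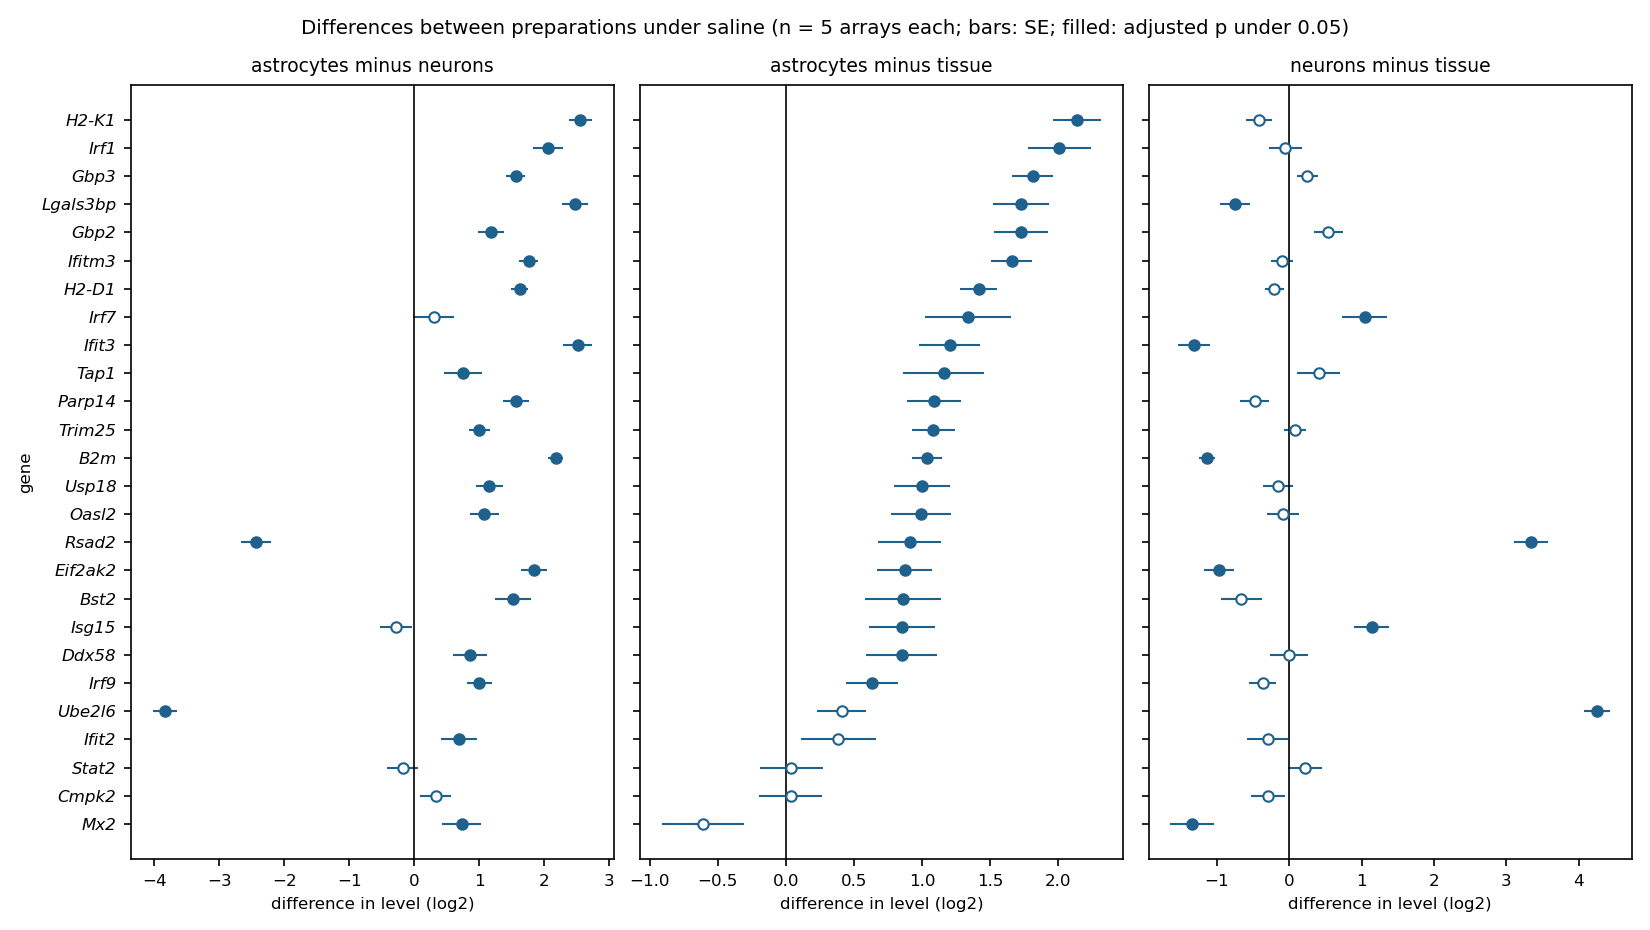
Difference in level between preparations under saline (log2, horizontal axis) for each of the 26 tested genes (vertical axis), as the estimate of the fit with its standard error, 5 arrays per preparation. Filled points passed an adjusted p of 0.05: against tissue 21 genes lie to the right in astrocytes, while Ube2l6 and Rsad2 stand far to the right in neurons.

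The 4 antigen presentation genes among the members were all higher in astrocytes than in neurons and than in tissue, as were 27% and 24.2% of all genes. H2-K1, a heavy chain of MHC class I, had levels of 11.68, 11.26, 11.75, 11.80 and 11.27 in astrocytes, 9.02, 8.76, 9.54, 8.92 and 8.75 in neurons, and 9.59, 9.03, 9.33, 9.66 and 9.47 in tissue. All 5 astrocyte arrays lay above all others, while neurons and tissue overlapped. Its difference was 2.56 ± 0.18 against neurons and 2.14 ± 0.18 against tissue (adjusted p = 3.34e-09 and 5.15e-08). H2-D1, the other heavy chain on the list, was higher by 1.62 ± 0.14 and 1.42 ± 0.14 (adjusted p = 3.14e-08 and 2.66e-07). The class I heavy chain genes are close to one another in sequence, so their probes may share signal.

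B2m, the light chain common to class I molecules, read 13.97, 14.15, 14.13, 14.04 and 13.95 in astrocytes, 11.93, 11.73, 12.04, 11.91 and 11.75 in neurons, and 13.05, 12.76, 13.23, 13.01 and 13.01 in tissue. The 3 preparations formed 3 separate bands. B2m was higher by 2.18 ± 0.11 in astrocytes than in neurons and by 1.04 ± 0.11 than in tissue, and lower by 1.14 ± 0.11 in neurons than in tissue (adjusted p = 1.16e-10, 9.49e-07 and 1.71e-06). Tap1, which carries peptides into the endoplasmic reticulum, was higher in astrocytes by 0.75 ± 0.30 and 1.16 ± 0.30 (adjusted p = 0.0402 and 0.00368), but the first of these calls was lost in 7 of the 10 fits that left out 1 array.

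Among the transcription factors, Irf1, which interferon gamma induces, differed most. Its levels were 10.76, 10.41, 11.36, 11.36 and 10.46 in astrocytes, 8.51, 8.30, 9.11, 9.13 and 8.99 in neurons, and 8.82, 8.83, 8.48, 9.33 and 8.85 in tissue. The astrocyte arrays stood clear of both other sets, which overlapped. The difference was 2.06 ± 0.23 against neurons and 2.01 ± 0.23 against tissue (adjusted p = 9.69e-07 and 1.9e-06). Irf9, the DNA-binding part of the complex that reads the ISRE, was higher by 1.00 ± 0.19 and 0.63 ± 0.19 (adjusted p = 0.00023 and 0.00979).

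Stat2, the partner of Irf9 in that complex, differed by -0.18 ± 0.23 and 0.04 ± 0.23 (adjusted p = 0.54 and 0.907). Irf7, which amplifies the type I response, was detected on 4 astrocyte arrays, 3 neuron arrays and 0 tissue arrays under saline. It was at least 1.74-fold higher in astrocytes and at least 1.41-fold higher in neurons than in tissue (adjusted p = 0.00208 and 0.0234). The neuron call was lost in 3 of the 10 fits without 1 array.

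Of the 4 listed sensors of viral RNA, the kinase PKR, gene Eif2ak2, was the 1 detected on all arrays. It was higher by 1.85 ± 0.20 in astrocytes than in neurons and by 0.87 ± 0.20 than in tissue, and lower by 0.97 ± 0.20 in neurons than in tissue (adjusted p = 7.37e-07, 0.00172 and 0.00191). Ddx58, which encodes RIG-I, was detected on 4 astrocyte arrays and on 0 neuron and 0 tissue arrays under saline. It was at least 1.24-fold higher than in neurons and at least 1.42-fold higher than in tissue (adjusted p = 0.00941 and 0.0113). Ifih1, which encodes MDA5, was detected on 0 of the 30 arrays, and Dhx58, the related LGP2, on 4.

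Antiviral effectors were tested for 8 of the 13 listed. Ifit3, which binds viral RNA in complexes with other IFIT proteins, had 11.62, 11.81, 10.65, 11.23 and 11.55 in astrocytes, 9.05, 9.05, 8.68, 8.95 and 8.54 in neurons, and 10.13, 9.55, 10.38, 10.16 and 10.62 in tissue. The lowest astrocyte array lay just above the highest tissue array, and every neuron array lay below both. The differences were 2.52 ± 0.22 for astrocytes against neurons, 1.20 ± 0.22 for astrocytes against tissue and -1.32 ± 0.22 for neurons against tissue (adjusted p = 5.8e-08, 0.000255 and 0.000352). The Ifit3 probe may also read a close copy of the gene.

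Ifitm3, which stops viruses from fusing with membranes, read 12.27, 11.41, 11.84, 11.82 and 11.62 in astrocytes, 9.85, 10.17, 10.06, 10.20 and 9.89 in neurons, and 10.17, 9.94, 10.30, 10.06 and 10.21 in tissue. Neurons and tissue were interleaved, and the astrocyte arrays were more than 1 log2 unit higher. Ifitm3 was higher by 1.76 ± 0.15 and 1.66 ± 0.15 in astrocytes (adjusted p = 3.43e-08 and 1.23e-07). Bst2, or tetherin, which holds budding virus at the cell surface, was higher by 1.52 ± 0.28 and 0.86 ± 0.28, and Oasl2, an oligoadenylate synthetase-like protein, by 1.08 ± 0.22 and 0.99 ± 0.22 (adjusted p of 0.0164 or less).

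Mx2, an antiviral GTPase, was lower in neurons than in tissue by 1.34 ± 0.30 (adjusted p = 0.0035). In astrocytes it was higher than in neurons by 0.73 ± 0.30 (adjusted p = 0.0488), a call that held in 2 of the 10 fits without 1 array, and it differed by -0.61 ± 0.30 from tissue (adjusted p = 0.104). Ifit2, a relative of Ifit3, was higher by 0.69 ± 0.28 in astrocytes than in neurons (adjusted p = 0.044), also lost in 8 of those 10 fits. Cmpk2, a mitochondrial nucleotide kinase, differed by at most 0.33 ± 0.23 between preparations and passed in none of the 3 comparisons.

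The interferon-induced GTPases and their companions were higher in astrocytes for 4 of the 4 tested, in both comparisons. Of all genes 27% were higher than in neurons and 24.2% than in tissue. Gbp3, a guanylate-binding protein, read 10.14, 10.65, 10.23, 10.14 and 10.40 in astrocytes, 8.79, 8.98, 8.46, 8.85 and 8.67 in neurons, and 8.33, 8.24, 8.62, 8.45 and 8.86 in tissue. The astrocyte arrays did not overlap with the others, and the differences were 1.56 ± 0.15 and 1.81 ± 0.15 (adjusted p = 1.38e-07 and 4.46e-08). Gbp2 was higher by 1.18 ± 0.20 and 1.72 ± 0.20, and Parp14, an ADP-ribosyltransferase, by 1.57 ± 0.20 and 1.09 ± 0.20 (adjusted p of 0.000222 or less). Lgals3bp, a secreted glycoprotein that binds galectin-3, was higher by 2.48 ± 0.20 in astrocytes than in neurons, by 1.73 ± 0.20 than in tissue, and lower by 0.75 ± 0.20 in neurons than in tissue (adjusted p = 2.33e-08, 2.41e-06 and 0.0115).

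**Figure D2:**
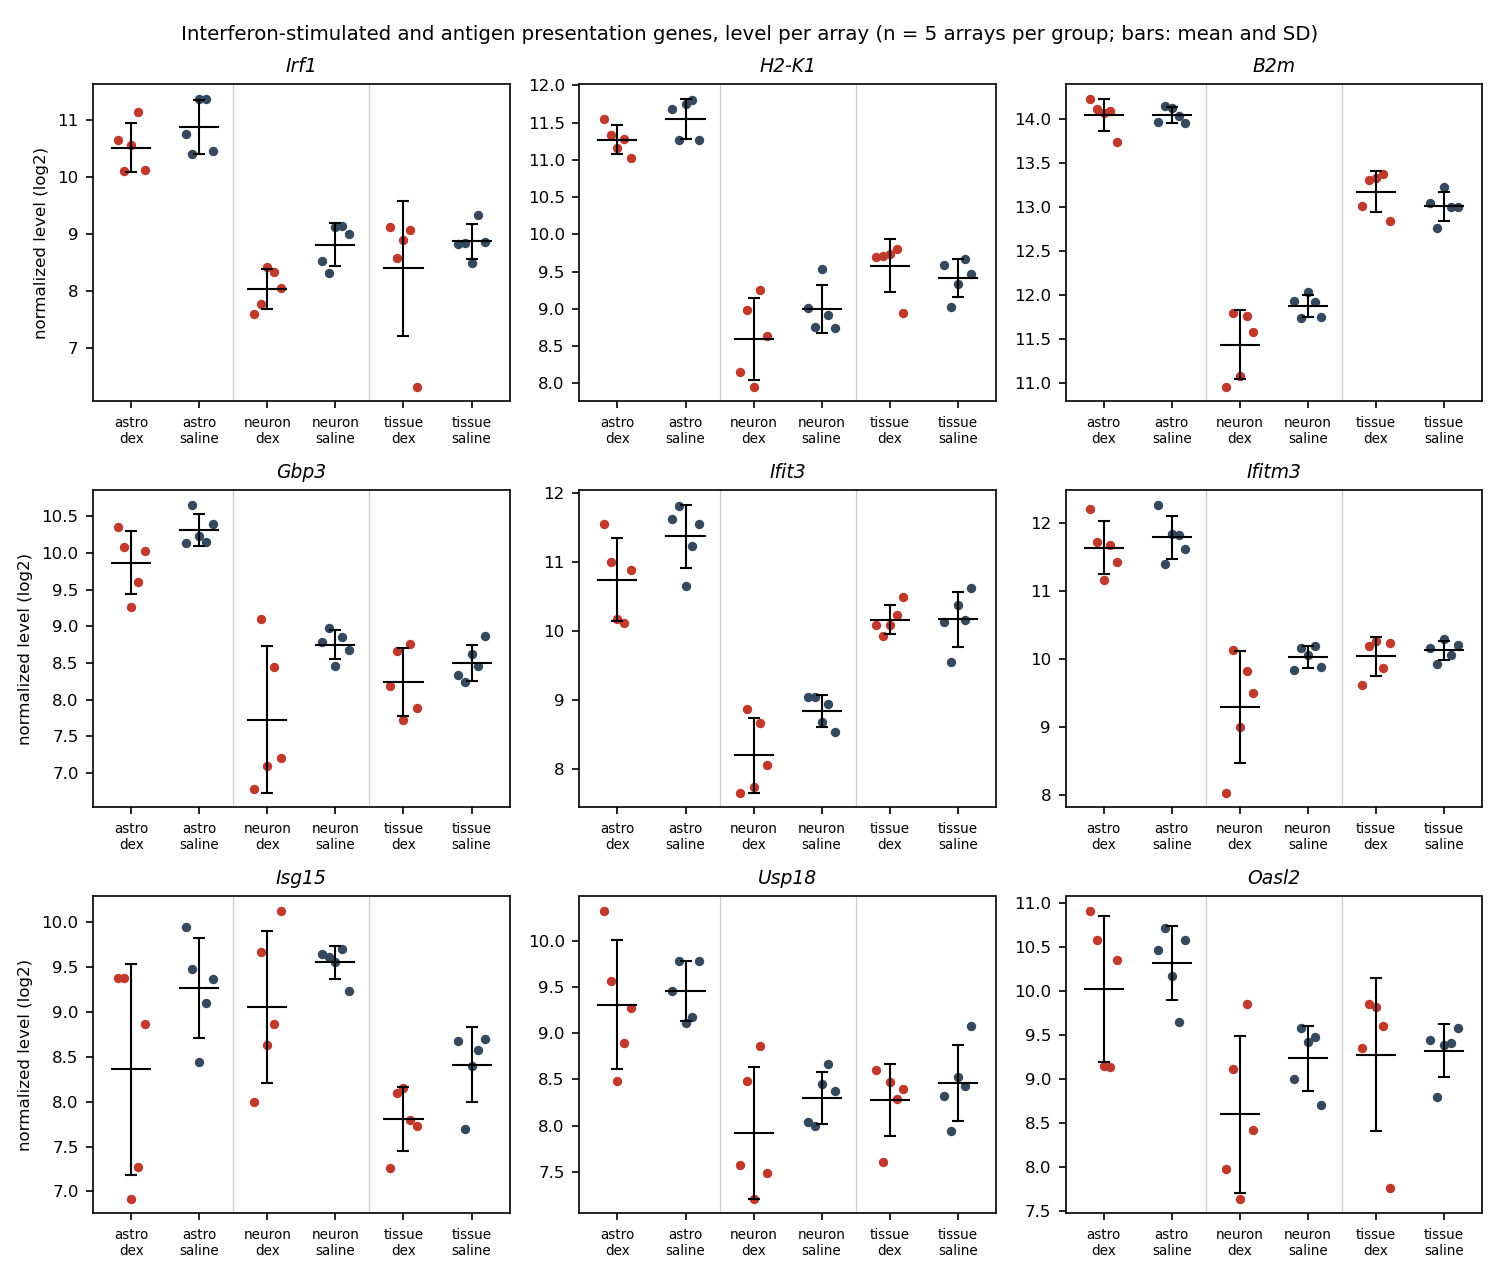
Normalized level on each array (log2, vertical axis) of 9 genes in the 6 groups (horizontal axis, dexamethasone in red and saline in dark blue), with mean and SD of 5 arrays. For H2-K1, B2m, Irf1, Gbp3 and Ifitm3 every astrocyte saline array lies above every neuron and tissue saline array. For Gbp3 and Ifit3, but not for Irf1, the neuron dexamethasone points spread more widely than the neuron saline points.

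The ISG15 pathway, which attaches a ubiquitin-like protein to others, was split between the preparations. Ube2l6, the conjugating enzyme, had levels of 10.77, 11.27, 11.04, 10.79 and 11.68 in neurons and 6.96, 6.32, 6.84, 7.17 and 7.00 in tissue, while astrocytes had 7.33, 7.39, 7.19, 7.26 and 7.17. Neurons were higher than tissue by 4.25 ± 0.18, and astrocytes lower than neurons by 3.84 ± 0.18 (adjusted p = 3.34e-10 and 5.71e-11). Rsad2, listed with the antiviral effectors and not with this pathway, encodes the antiviral enzyme viperin and was also high in neurons. It had 11.65, 11.88, 11.90, 11.57 and 11.85 in neurons and 8.14, 7.96, 8.14, 9.04 and 8.87 in tissue, with 9.44, 9.72, 8.63, 9.22 and 9.68 in astrocytes.

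Rsad2 was higher in neurons than in tissue by 3.34 ± 0.23, lower in astrocytes than in neurons by 2.43 ± 0.23, and higher in astrocytes than in tissue by 0.91 ± 0.23 (adjusted p = 4.7e-08, 1.42e-07 and 0.00351). The Ube2l6 and Rsad2 arrays of neurons did not overlap with those of any other preparation. Isg15 itself was higher than in tissue both in astrocytes, by 0.85 ± 0.24, and in neurons, by 1.14 ± 0.24 (adjusted p = 0.0076 and 0.00236). Usp18, which removes ISG15 and restrains the interferon receptor, and the ubiquitin ligase Trim25 were higher in astrocytes than in neurons by 1.15 ± 0.21 and 1.00 ± 0.16, and than in tissue by 1.00 ± 0.21 and 1.08 ± 0.16 (adjusted p of 0.000684 or less).

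The neuron preparation also carried red cell transcripts. Alas2, which starts heme synthesis in erythroid cells, averaged 13.34 ± 0.34 in neurons and 7.95 ± 0.30 in tissue under saline, and 7.49 ± 0.94 in astrocytes (SD, n = 5 each). The globin gene Hbb-b2 was higher in neurons than in tissue by 4.31 ± 0.28 and the anion exchanger Slc4a1 by 3.57 ± 0.23 (adjusted p = 2.36e-08 and 2.4e-08). These were the 3 called higher among 7 tested blood and leukocyte markers, with 1 lower, beside 11% and 15.9% of all genes. The list averaged 8.43 to 9.20 on the neuron arrays and 6.88 to 7.38 on the tissue arrays. The part of these markers in the Ube2l6 and Rsad2 levels was not tested.

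**Figure D3:**
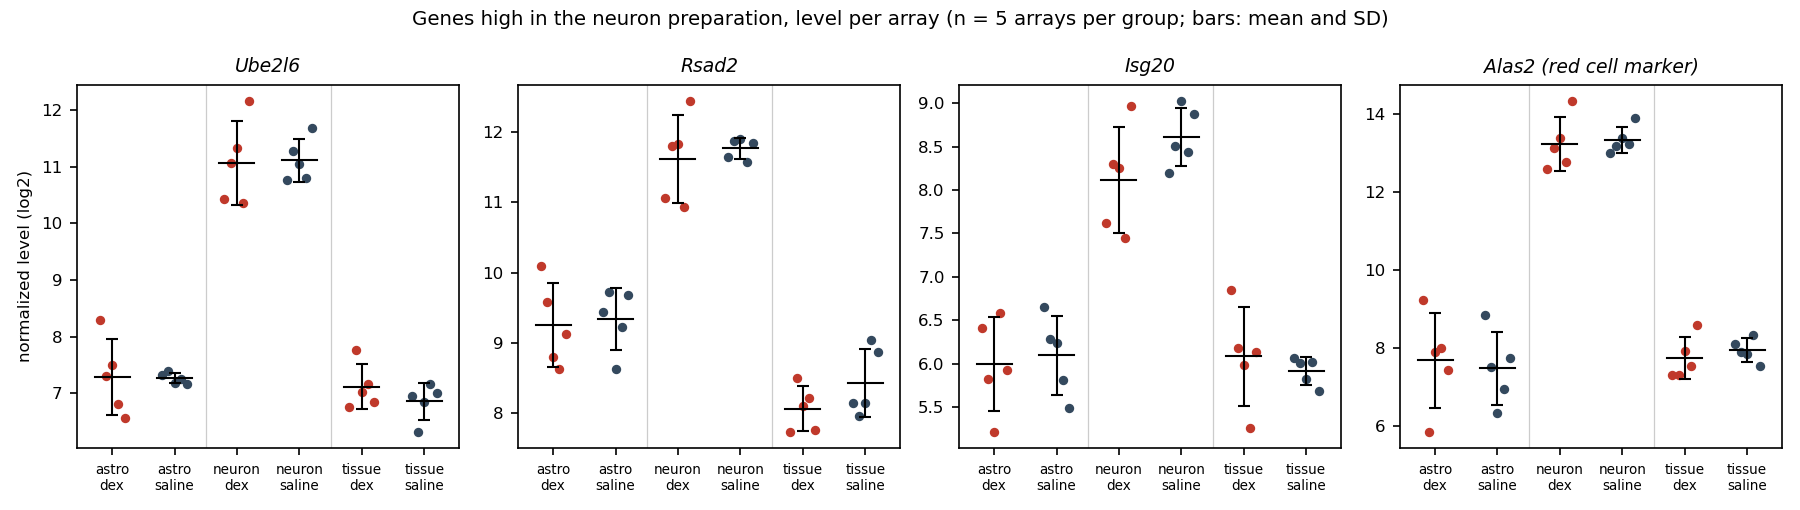
Level on each array (log2, vertical axis) of Ube2l6, Rsad2, Isg20 and the red cell marker Alas2 in the 6 groups (horizontal axis), with mean and SD of 5 arrays. All 4 genes are highest in both neuron groups: Alas2 averages 13.34 in neurons and 7.95 in tissue under saline.

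Markers of other cells also differed between the preparations, not all of them in the direction of the members. The list of 14 microglia markers had means of 8.88 to 9.63 on the astrocyte arrays, 6.51 to 6.80 on the neuron arrays and 9.64 to 9.89 on the tissue arrays. In astrocytes 13 of these were higher and 1 lower than in neurons, while 0 were higher and 7 lower than in tissue, and Cx3cr1, Tmem119, Tyrobp and Trem2 were detected on 0 neuron arrays. The 14 endothelial markers averaged 9.94 to 10.99 in astrocytes, 10.23 to 10.91 in neurons and 9.44 to 9.65 in tissue, with 2 higher and 1 lower in astrocytes than in neurons and 11 higher than in tissue. The 8 mural cell markers averaged 8.24 to 9.23, 6.33 to 6.82 and 7.66 to 8.16, with 5 higher in astrocytes than in neurons and 4 than in tissue; Pdgfrb, Rgs5 and Kcnj8 were detected on 0 neuron arrays and Abcc9 on 0 astrocyte arrays. Beside these counts, 27% of all genes were higher and 31.2% lower in astrocytes than in neurons, and 24.2% and 27.6% than in tissue. The part of these markers in the members' levels was not tested.

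Under median scaling Bst2, Irf9 and Isg15 were no longer called in astrocytes against tissue under saline (limma, adjusted p = 0.0966, 0.196 and 0.0656). Under the same scaling Mx2 was called lower there (difference -0.82 on the log2 scale, limma, adjusted p = 0.0284). The dexamethasone arrays give the same comparison in other mice. The comparison on them was chosen after the saline values were seen. There 18 members were higher and 2 lower in astrocytes than in neurons (25.4% and 27.7% of all genes), and 16 were higher and 0 lower than in tissue (23.2% and 22.9%). Without tissue replicate 5 the counts were 19 and 2 (27.9% and 31.6%) and 16 and 0 (24.9% and 25.7%). Of the 22 and 21 members called under saline, 20 and 15 were called in the same direction on these arrays, tissue replicate 5 included, and 0 in the opposite one. The matching share of all genes was not computed, so this agreement cannot be called particular to the members. In neurons against tissue 2 were higher and 6 lower (11% and 13.1%), and 2 and 8 without tissue replicate 5 (14.1% and 16.4%). For 11 of the genes 14 further probes were detected, and their differences under saline had the sign of the chosen probe in 14 of 14 cases in both astrocyte comparisons and in 10 of 14 in neurons against tissue.

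Among tested members with a matched promoter, 7 of the 8 with the ISRE core were higher in astrocytes than in tissue, as were 12 of the 15 without it and 24.2% of all genes. Against neurons the counts were 5 of 8 and 12 of 15, beside 27% of all genes. The medians against tissue were 0.97 with and 1.08 without the core.

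Dexamethasone was next compared with saline within each preparation, to ask whether a glucocorticoid lowers these genes within 4 h. None of the 26 genes passed the test in any preparation: 0 were called in astrocytes, where 1.77% of all genes were called, 0 in neurons, where 0% were, and 0 in tissue, where 0.0378% were (limma on 10 arrays each). At an unadjusted p under 0.05, 1 member was lower in astrocytes, 8 were lower in neurons and 1 was lower in tissue, and 0 were higher, where 10.1%, 7.04% and 5.68% of all genes reached that level in either direction. Most estimates were negative: 21 of 26 in astrocytes, 23 in neurons and 18 in tissue, against 52.3%, 52% and 56.9% of all genes. The medians were -0.14, -0.39 and -0.12, while those of all genes were -0.01, -0.01 and -0.04.

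In neurons the lowest p belonged to Gbp2. It read 7.44, 7.13, 7.12, 8.13 and 7.58 after dexamethasone and 8.46, 8.15, 8.86, 8.46 and 8.39 after saline. The groups did not overlap, which held for 1 of the 26 members and 1.09% of all genes in neurons, for 0 members and 3.79% in astrocytes and for 0 members and 1.37% in tissue, and Gbp2 was lower on 5 of 5 chips. Its difference was -0.98 ± 0.20, with adjusted p = 0.435, and 0.0355 where all 30 arrays shared 1 estimate of the spread. Irf1 had 7.60, 7.77, 8.42, 8.33 and 8.05 against 8.51, 8.30, 9.11, 9.13 and 8.99, a difference of -0.78 ± 0.21 on 5 of 5 chips (adjusted p = 0.442). Further Irf1 probes gave smaller differences in neurons, of -0.63, -0.23, -0.21 and 0.08. Over all members with further probes, the drug difference had the sign of the chosen probe for 11 of 14 in astrocytes. The counts were 11 of 14 in neurons and 8 of 14 in tissue.

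Ifit3 had 7.67, 8.87, 7.75, 8.67 and 8.06 in neurons after dexamethasone, against 9.05, 9.05, 8.68, 8.95 and 8.54 after saline, so that the groups overlapped. Its difference was -0.65 ± 0.24 (adjusted p = 0.601). Gbp3 had 6.78, 9.10, 7.09, 8.45 and 7.20 against 8.79, 8.98, 8.46, 8.85 and 8.67, where 3 dexamethasone arrays were far below and 1 was above all saline arrays. The differences of Gbp3 and Parp14 were -1.02 ± 0.40 and -0.76 ± 0.29 (adjusted p = 0.643 and 0.612). Parp14 read 7.04 on neuron dexamethasone replicate 2 and no more than 5.95 on the others of that group. Dhx58, detected on 0 arrays of that group, read up to 6.17 there. The Parp14 difference is thus measured near the background, and its size is uncertain.

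The 26 genes were also more variable on the neuron arrays after dexamethasone. Their median SD was 0.54 after dexamethasone and 0.28 after saline, and 23 of 26 genes had the wider spread after dexamethasone, against 49.9% of all genes. Over all genes the median SD in neurons was 0.26 under both agents. In astrocytes 18 of the 26 were wider after dexamethasone (38.2% of all genes), and in tissue 21 (79.1%). In neurons the mean over the 26 genes was 7.81, 8.65, 8.06, 8.68 and 8.23 on dexamethasone replicates 1 to 5 and between 8.61 and 8.82 on the saline arrays. Replicates 1 and 3 were low and replicates 2 and 4 reached the saline range. Leaving out 1 array moved the median difference between -0.47, without dexamethasone replicate 2, and -0.27, without dexamethasone replicate 1.

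The means of 5 marker lists, for astrocytes, oligodendrocytes, endothelial cells, microglia and mural cells, were also lower on the neuron arrays after dexamethasone, with 0 markers called. The astrocyte list had 7.42, 8.22, 7.47, 8.10 and 7.69 on the same dexamethasone arrays and 8.71, 8.14, 9.22, 8.49 and 9.51 on the saline arrays, a median difference of -1.12 with 4 of 5 chips lower. The oligodendrocyte list had 11.47 to 12.46 after dexamethasone and 11.93 to 13.01 after saline and was lower on 5 of 5 chips, while the medium spiny neuron list had 12.78 to 13.10 and 12.77 to 13.09. The endothelial list had 9.65, 10.31, 9.72, 10.45 and 10.65 after dexamethasone, where replicates 1 and 3 were again the lowest, and 10.32, 10.23, 10.63, 10.32 and 10.91 after saline, a median difference of -0.34 with 3 of 5 chips lower. The microglia list averaged 6.41 ± 0.15 after dexamethasone and 6.64 ± 0.11 after saline, the mural cell list 6.29 ± 0.19 and 6.58 ± 0.22, and the blood and leukocyte list 8.82 ± 0.34 and 8.81 ± 0.27 (SD, n = 5 each). Their part in the members' differences was not tested.

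**Figure D4:**
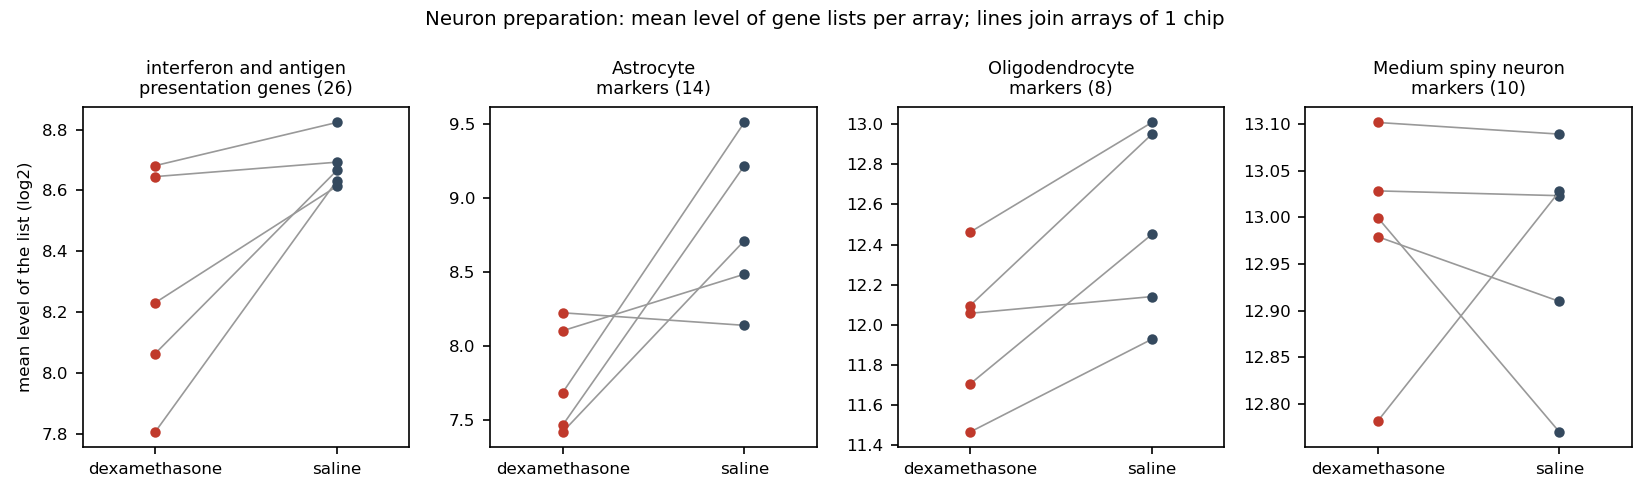
Mean level (log2, vertical axis) of the 26 genes and of 3 marker lists on each neuron array after dexamethasone (left in each panel) and saline (right), with lines that join arrays of 1 chip. The genes run from 7.81 to 8.68 after dexamethasone and from 8.61 to 8.82 after saline, and the astrocyte and oligodendrocyte markers shift the same way on most chips.

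In astrocytes, where the drug raised Fkbp5 most, the lowest p of a member was again that of Gbp2. It had 9.79, 9.25, 9.16, 8.87 and 8.94 after dexamethasone and 10.05, 9.52, 9.82, 9.30 and 9.54 after saline, lower on 5 of 5 chips with overlapping groups, and a difference of -0.45 ± 0.20 (adjusted p = 0.488). Ifit3 differed by -0.62 ± 0.30 and was lower on 5 of 5 chips, with 11.54, 11.01, 10.18, 10.12 and 10.89 against 11.62, 11.81, 10.65, 11.23 and 11.55 (adjusted p = 0.539). Isg15 had 9.37, 9.37, 6.92, 7.27 and 8.86 after dexamethasone, with replicates 3 and 4 far below the others, against 9.95, 9.48, 8.44, 9.10 and 9.37 after saline.

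The difference of Isg15 was -0.91 ± 0.50 (adjusted p = 0.66), and those of Gbp3 and H2-K1 were -0.45 ± 0.21 and -0.28 ± 0.16 (adjusted p = 0.498 and 0.668). B2m differed by 0.00 ± 0.12. The list's median difference of -0.14 lay between -0.33 without dexamethasone replicate 1 and -0.03 without dexamethasone replicate 3. On dexamethasone replicate 1 the 26 genes averaged 9.97, above the saline arrays at 9.44 to 9.75, and on replicates 3 and 4 they averaged 9.05 and 9.13, below them.

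In tissue the lowest p was that of Isg15, with 7.26, 8.10, 8.15, 7.80 and 7.72 after dexamethasone and 8.68, 7.70, 8.40, 8.58 and 8.70 after saline. The difference was -0.61 ± 0.24 (adjusted p = 0.797), and -0.59 ± 0.25 without dexamethasone replicate 5 (adjusted p = 0.553). H2-D1 differed by 0.35 ± 0.18, Ifit2 by -0.54 ± 0.29, Cmpk2 by -0.50 ± 0.29 and Rsad2 by -0.37 ± 0.25 (adjusted p = 0.877 each). They differed by 0.22 ± 0.13, -0.46 ± 0.30, -0.25 ± 0.21 and -0.29 ± 0.25 without dexamethasone replicate 5 (limma, adjusted p of 0.72 or more). Without replicate 5, on which Irf1 read 6.31 against 8.57 to 9.11 on the other dexamethasone arrays, 15 of the 26 estimates were negative, their median was -0.12, and 0 members were called (0.106% of all genes), with 2 at an unadjusted p under 0.05 (8.6% of all genes). These were Isg15, which was lower, and H2-K1, which was higher by 0.32 ± 0.14 (adjusted p = 0.575).

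**Figure D5:**
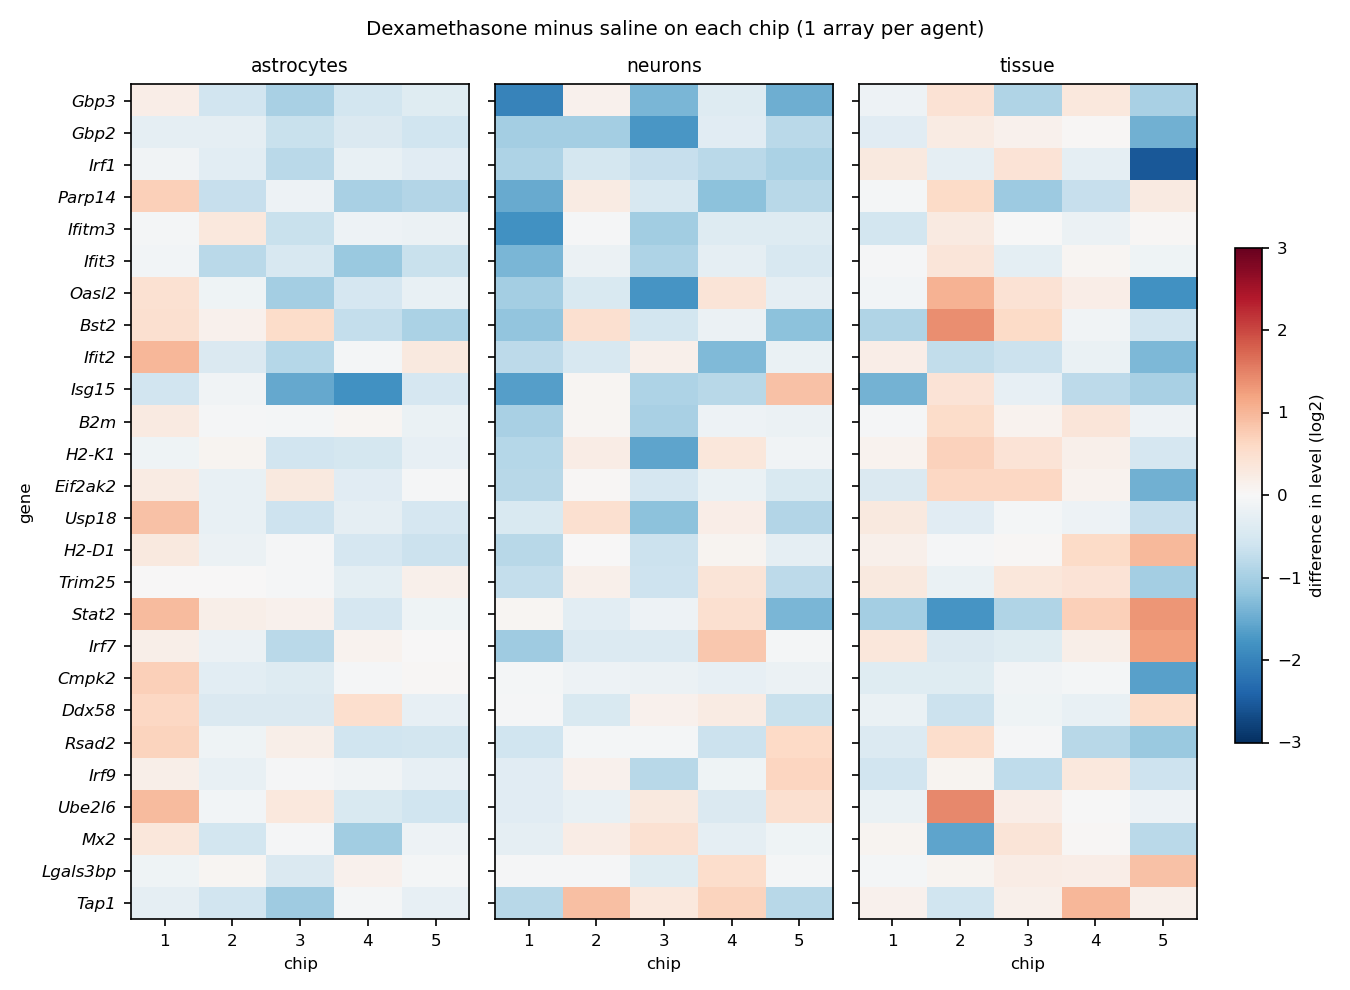
Difference between the dexamethasone and the saline array of each chip (log2, colour, blue for lower after dexamethasone) for the 26 genes (rows, ordered by the difference in neurons) on the 5 chips (columns) of each preparation. Gbp2 and Irf1 are lower on 5 of 5 chips in astrocytes and in neurons, and the tissue array of chip 5 stands out in both directions.

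The response to the drug was not shown to differ between preparations. The interaction tests on all 30 arrays called 0 of 26 members for astrocytes minus neurons, astrocytes minus tissue and neurons minus tissue, where 0.824%, 0.355% and 0.0529% of all genes were called, and 1, 1 and 3 members had an unadjusted p under 0.05, a level that 7.26%, 6.51% and 4.53% of all genes reached. The 3 were H2-D1, B2m and Gbp2 in neurons minus tissue, with interactions of -0.67 ± 0.23, -0.60 ± 0.21 and -0.71 ± 0.31 (adjusted p = 0.773, 0.785 and 0.984). These values include tissue dexamethasone replicate 5, on which H2-D1 stood apart from its group.

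The 7 genes in the table that were not tested stayed near the background. Ifit1, Oas1a, Mx1, Rtp4 and Ifih1 were detected on 0 of 30 arrays. Xaf1, linked to cell death, was detected on 1 array, of tissue after dexamethasone, and Dhx58 on 1 array each of the astrocyte and tissue groups under both agents. Of the 26 tested genes, 17 were detected on all 30 arrays and 9 on 5 to 29. With only such probes tested, 14 of the 17 were higher and 1 lower in astrocytes than in neurons (29.2% and 37.5% of the 7540 genes then tested), and 16 were higher and 0 lower than in tissue (27.8% and 32.9%). For the drug 0 of the 17 were called in astrocytes, neurons or tissue, where 3.14%, 0% and 0.0531% of those genes were. Ifi44 had no named probe here.

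Other genes of the pathway were read from a list of 86, of which 63 were tested. In astrocytes 41 were higher and 6 lower than in neurons (27% and 31.2% of all genes), and 30 higher and 6 lower than in tissue (24.2% and 27.6%). In neurons 7 were higher and 20 lower than in tissue (11% and 15.9%). The Janus kinase Jak1 was higher in astrocytes by 1.80 ± 0.13 than in neurons and by 1.86 ± 0.13 than in tissue (adjusted p = 3.64e-09 and 6.01e-09). Mavs, the adaptor below the RNA sensors, was detected on 0 neuron arrays and was at least 4.92-fold higher in astrocytes (adjusted p = 1.52e-10). Tlr3, a receptor for double-stranded RNA, was at least 4.83-fold higher in astrocytes than in tissue (adjusted p = 4.31e-09), and Socs3, a brake on Janus kinases, was higher by 3.54 ± 0.28 (adjusted p = 2.6e-08).

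Of the interferon genes themselves, 8 of 9 listed had a probe and 1, Ifna1, was tested. It was called in none of the 3 preparation comparisons and in none for the drug. In neurons against tissue, the exonuclease Isg20 was at least 4.24-fold higher (adjusted p = 1.29e-07), with 8.20, 8.51, 9.02, 8.43 and 8.87 in neurons and 6.06, 6.01, 5.82, 6.02 and 5.68 in tissue, where it was detected on 0 arrays. Psmb8, a subunit of the immunoproteasome, was lower by 1.77 ± 0.26, and Irf8, a factor of myeloid cells, was at least 1.48-fold lower (adjusted p = 8.47e-05 and 0.000191). Cd74, the invariant chain of class II, was at least 1.35-fold lower (adjusted p = 4.03e-07).

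For the drug, 1 of the 63 pathway genes was called, in astrocytes, a share near the 1.77% of all genes called there. It was Nlrc5, a transactivator of MHC class I genes. It had 8.23, 8.32, 8.61, 8.60 and 7.39 after dexamethasone and 7.12, 7.03, 7.58, 6.33 and 6.48 after saline. It was higher on 5 of 5 chips, and replicate 5 of dexamethasone lay within the saline range. The difference was 1.32 ± 0.29 (adjusted p = 0.0433), and the call was lost in 8 of the 10 fits that left out 1 array and without the filter on dim probes (adjusted p = 0.061). Ifi47, an immunity-related GTPase, was lower on 5 of 5 chips in each preparation without passing. The difference was -0.85 ± 0.26 in astrocytes and -0.70 ± 0.20 in tissue (adjusted p = 0.186 and 0.571), where it was detected on 1 array after dexamethasone and 4 after saline. In neurons it was detected on 0 arrays after dexamethasone and 4 after saline, and was at least 1.29-fold lower (adjusted p = 0.435). Others among the 6 with the smallest p per preparation went both ways, none called. Tlr7 was higher by 1.05 ± 0.32 in astrocytes and by 1.01 ± 0.28 in tissue (limma, adjusted p = 0.18 and 0.5). Phf11d was higher in astrocytes by 0.85 ± 0.36 and Tapbp in neurons by 0.51 ± 0.17. The rest were lower: Tapbpl and Gbp7 in astrocytes, Tapbpl, Irgm2, Trim21 and Samd9l in neurons, and Irgm2, Ptpn6, Igtp and Irf8 in tissue.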

How the data were processed

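The members and all gene lists were chosen with earlier results of these data known. RNA was purified with RNeasy columns and amplified with an Illumina kit, per the labels' protocols. The authors deposited log2 intensities for 46174 probes, not normalized between arrays. A second table the authors deposited was found to be those log2 values after quantile normalization with log2 taken once more (largest difference 5e-10, column median 2.99), and it served as an alternative, put back on the log2 scale. For the scanner software and the background step, the sources used here give nothing. Per the labels each of 5 chips held 1 array of every group, each group in its own fixed place, and what the place and what the group contribute cannot be told apart.

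The files hold no detection p, so 1588 probes for sensory receptors (odorant, vomeronasal, taste and trace amine) were taken as negative controls, in place of the planned detection p. Background was corrected with limma's normexp on them (offset 16), followed by quantile normalization over 30 arrays. A probe's detection p is the fraction of these receptor probes that were as bright or brighter, and 22568 probes had a value under 0.05 on at least 5 arrays. Of all probes 35725 had 1 gene symbol, 0 several and 10449 none. Symbols were updated through RefSeq (GRCm38.p6), with 28566 matched by Entrez ID, 2632 by accession and 4527 kept. Each gene is its brightest detected probe.

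Tests were limma 3.58.1 in R 4.3.3 (lmFit, eBayes, two-sided, Benjamini-Hochberg over 13228 genes, called at adjusted p under 0.05), checked on simulated data. Drug comparisons used the 10 arrays of a preparation and comparisons of preparations the 15 saline arrays. "At least" folds set the brighter group's mean against the detection floor of a group detected on 0 arrays. Values are given for up to 12 called members with the largest differences between preparations, for the 5 members with the smallest p where the drug called none, and for up to 6 pathway genes per comparison. The number of arrays limits the precision.

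Replicate numbers mark the chip, per the labels, so arrays of 1 number share a batch. Deviations from the group means correlated on average at 0.19 in astrocytes, 0.17 in neurons and 0.05 in tissue for arrays of 1 chip (lowest pair -0.04, 0.07 and -0.12). The values given are from the fit without a chip block, and the block is an alternative. Alternatives were the authors' table, offset 50, median scaling, no filter, probes detected on all 30 arrays, the mean of all probes, the block, 1 shared spread, leaving out each array, and, chosen after seeing the data, the dexamethasone arrays for the preparations.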

Additional observations from a re-analysis of the deposited data

Results flagged for a closer look

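Within the 26 tested genes and 6 groups, 14 of 156 sets of 5 arrays held 1 array that stood apart from the other 4 by over 0.71 of the whole range, where chance gives about 1 in 20. Replicate 5 of tissue after dexamethasone accounted for 4 of them: Irf1 at 6.31 (nearest other array 8.57), Oasl2 at 7.77 (9.35) and H2-K1 at 8.95 (9.70) lay below the rest of the group, and H2-D1 at 11.21 (10.65) lay above it. This array also had the highest share of detected probes, 50.2%.

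The other sets, with no pattern tested, were these. In astrocytes, Irf9 read 9.60 on dexamethasone replicate 1, Ifit2 read 6.86 on saline replicate 1 and Mx2 read 5.98 on saline replicate 3. In neurons, Parp14 read 7.04 on dexamethasone replicate 2. In tissue, Mx2 read 6.04 on dexamethasone replicate 2. Among the tissue saline arrays, Irf7 read 6.59, Oasl2 read 8.80 and Bst2 read 7.42 on replicate 2, Irf9 read 9.05 on replicate 3 and Mx2 read 8.45 on replicate 5.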

How the results depend on the processing

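No alternative reversed a called difference. Members called for the drug stayed at 0 under every alternative run except 1 shared spread, which called 1 in neurons, Gbp2. All genes called for the drug in astrocytes numbered 234, and 148 under median scaling, 368 with 1 shared spread and 132 (dexamethasone replicate 3) to 227 without 1 array. In neurons 0 became 10 and 53 under the same settings, and 0 to 31 (saline replicate 2) without 1 array. In tissue 5 became 8 in the authors' table, 8 with offset 50, 0 under median scaling, 12 with 1 shared spread and 1 to 14 without 1 array, where 8 of the 10 arrays gave 1 or 2 and dexamethasone replicate 5 gave 14. With chip as a replicate block, which pairs the arrays, tissue gave 2, and no count of called members moved by over 1.5 times. Members called in neurons against tissue then numbered 11 in place of 9, and all genes called there moved by no more than 1.5 times from 3558. Without 1 array members called numbered 19 to 21, 21 to 22 and 8 to 11 for astrocytes against neurons, astrocytes against tissue and neurons against tissue, and 0 for the drug and the interactions. Of the 13228 genes, 7341 to 7566, 6452 to 6748 and 2941 to 3397 were called in those 3 comparisons. The members' median differences ran 1.03 to 1.23, 0.94 to 1.10 and -0.18 to -0.07, and -0.33 to -0.03, -0.47 to -0.27 and -0.18 to -0.05 for the drug in astrocytes, neurons and tissue. Probes detected on all 30 arrays gave a median of 1.56 for astrocytes against neurons, with 5033 genes called among fewer tested. The authors' table gave a median of 0.67 for astrocytes against tissue. Neurons against tissue had a median of -0.34 under median scaling and -0.36 on the dexamethasone arrays. All genes called by the interaction numbered 75 for astrocytes minus tissue in the authors' table, and for neurons minus tissue 0 under median scaling, 1 without the filter and 2 with probes detected on all 30 arrays. Without 1 array the 3 interactions gave 83 to 145, 20 to 54 and 1 to 27, the last without neuron saline replicate 2. Median scaling moved the median of all genes to -0.23 for the drug in tissue, -0.19 for astrocytes against tissue, -0.13 for neurons against tissue and -0.10 for astrocytes against neurons, and the share of higher calls from 46.7% to 35.5% (astrocytes against tissue), 41.1% to 22.9% (neurons against tissue) and 79.5% to 91.9% (drug in astrocytes). Under it Bst2, Irf9 and Isg15 were no longer called in astrocytes against tissue, at 0.61, 0.40 and 0.61. Causes were not tested. Dim probes limit Irf7, Ddx58, Tap1, Mx2 and Stat2, which were near background on many arrays. The probes of Bst2, Ifit2, Parp14 and Ube2l6 were also not detected on all 30 arrays, which limits the size of their differences.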
